A study of Arabidopsis thaliana with 12 samples.

Results

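Transcripts of the chloroplast and mitochondrial genomes were described in Arabidopsis thaliana seedlings that lacked BRAHMA (BRM), the bromodomain proteins BRD1, BRD2 and BRD13, or all of them. BRM is the ATPase of a SWI/SNF chromatin remodelling complex in the nucleus, and the BRD proteins are subunits of BRM-containing complexes. The 12 libraries came from total RNA of 14-day-old seedlings of the Col-0 ecotype under long days, with 3 libraries each of brm-1, brd1,2,13, the combined mutant brm-1 brd1,2,13, and WT. No transgene or treatment is named for any group, and nothing in the labels says whether replicates were separate plantings or whether poly(A) RNA was selected. The deposited gene table gives 1 FPKM value per genotype (fragments scaled to transcript length and to the number of mapped fragments) and none per library. No error or test over samples could therefore be computed from these values, the test columns that the authors deposited beside them were not used, and every ratio below describes 1 pair of values with no replicate check.

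The records were chosen by their place on either organelle genome and by their FPKM, which had to reach 1 in at least 1 genotype. This rule kept 16 of the 31837 records of the table, 8 on the chloroplast genome and 8 on the mitochondrial genome. They came from 42 assembled organelle loci, 13 chloroplast and 29 mitochondrial, all without a gene name in the table. The other 26 loci had values above 0 in every genotype but stayed under 1 FPKM. The table also lists 271 annotated organelle gene records, 130 of the chloroplast and 141 of the mitochondrion. Each of them is listed at 0 in all 4 genotypes. These records carry the sequence names Pt and Mt, where the assembled loci carry C and M. Their zeros therefore do not show that the genes lacked transcripts. Organelle transcripts were thus represented only by assembled loci, most of which join several genes, so that the value of a single gene within such a locus cannot be separated. The strand of each locus is not given.

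Just inside the threshold was the chloroplast locus from psaI to clpP, which reached 1.04 FPKM in its highest genotype. Just outside it was a mitochondrial locus at M:36915-38398 with 0.958 FPKM in its highest genotype. Of the 8 chloroplast records, 6 were at or above 1 FPKM in brm-1, 6 in brd1,2,13, 8 in brm-1 brd1,2,13 and 6 in WT. The same counts for the 8 mitochondrial records were 8 in brm-1, 7 in brd1,2,13, 8 in brm-1 brd1,2,13 and 6 in WT. The records that pass in some genotypes only were bound to differ between genotypes, and counts over the 16 records are given below together with those over all 42 loci, to which no minimum was applied.

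Chloroplasts and mitochondria keep small circular genomes that descend from bacterial ancestors. The chloroplast genome encodes core subunits of the photosystems, the cytochrome b6f complex, ATP synthase and an NADH dehydrogenase-like (NDH) complex, the large subunit of Rubisco, and part of the organelle's own ribosome. It is read by a bacterial-type polymerase with a plastid-encoded core (rpoA, rpoB, rpoC1, rpoC2), which needs sigma factors made in the nucleus, and by phage-type polymerases that are themselves nuclear gene products. Mitochondrial genes are read by phage-type polymerases only. Most organelle transcripts are made as long precursors from gene clusters and then cut, spliced and edited.

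The chloroplast loci could be named, because 116 of the 130 annotated chloroplast records of the table (89.2%) have the same start and end as a gene of the RefSeq chloroplast genome (assembly TAIR10.1). The 8 records cover all 15 photosystem II genes, all 6 ATP synthase genes, all 6 cytochrome b6f genes and all 4 rpo genes. They also hold 6 of 7 genes of photosystem I and its assembly factors, rbcL, 19 of 25 ribosomal protein genes and 3 of 12 NDH genes. Of the genes with a transfer RNA symbol (trn), they hold 16 of 35. None of the 8 records holds a ribosomal RNA gene. They span 52.1% of the 154478 bases of the chloroplast genome. The genome carries an inverted repeat with 2 identical arms of 26264 bases, which hold the ribosomal RNA genes. The 13 assembled loci cover 7.93% of the first arm and 0% of the second, against 86.2% of the sequence outside the repeat. The assembled chloroplast loci thus lay almost wholly in the single-copy regions.

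The chloroplast locus with the highest FPKM in every genotype was at C:112967-113805 and holds 1 annotated gene, rpl32, a protein of the large subunit of the chloroplast ribosome. It is the only one of the 8 chloroplast records that overlaps a single gene, so its rank is among loci and not among single genes. Its coding sequence (ATCG01020, C:113449-113607, plus strand, read from RefSeq TAIR10.1) is shown because it is the one annotated gene in this locus. The coding sequence has 159 of the 839 bases of the locus, and which part of the locus, or which strand, gave the reads is not known. The capitals mark the start and stop codons.
rpl32: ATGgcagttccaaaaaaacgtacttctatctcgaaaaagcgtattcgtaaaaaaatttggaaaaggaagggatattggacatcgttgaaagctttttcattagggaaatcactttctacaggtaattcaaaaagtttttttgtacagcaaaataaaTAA
The locus had a GC content of 24.1%, against 36.3% for the whole chloroplast genome, and 1.49% of all windows of that length had a lower one. The other 7 chloroplast records had GC contents between 31.8% and 36.4%. The longest run of A or T in the 8 records was between 10 and 16 bases, and the rpl32 locus was at the low end of that range with 10. It was also the shortest of the 8 records, and the locus at C:31640-36251, with 4612 bases, had 10 as well.

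The one chloroplast record of the 8 that was highest in WT holds psbA, the gene of the D1 reaction-centre protein of photosystem II. The 71 bases from 150 to 80 positions before its start codon (C:1524-1594, minus strand, RefSeq TAIR10.1) are shown because they hold letters of the kind that the bacterial-type polymerase reads. The capitals mark the motifs TTGACA and TATACT, which lie 18 bases apart.
psbA upstream: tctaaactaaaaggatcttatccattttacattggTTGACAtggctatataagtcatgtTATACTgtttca
Searched on both strands, TTGACA was found in 4.71% and TATACT in 4.71% of the same window before 85 chloroplast protein-coding genes, and both were found in 1.18%, which is psbA alone. Only exact matches in the window shown for psbA were counted, and motifs at other distances or with other letters were not searched. The count therefore does not show that psbA differs from other genes. The match is a description of the sequence, and polymerase binding was not measured.

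The 8 chloroplast records summed to 23.7 FPKM in brm-1, 32.1 in brd1,2,13, 35.0 in brm-1 brd1,2,13 and 29.6 in WT. These sums were 0.00254% of all FPKM in brm-1, 0.00338% in brd1,2,13, 0.00374% in brm-1 brd1,2,13 and 0.00310% in WT. The 8 mitochondrial records summed to 32.0 FPKM in brm-1, 32.7 in brd1,2,13, 40.7 in brm-1 brd1,2,13 and 26.3 in WT. The lowest chloroplast sum was thus that of brm-1 and the lowest mitochondrial sum that of WT, while the combined mutant had the highest sum for both organelles. The median chloroplast record was at 1.79 FPKM in brm-1, 2.18 in brd1,2,13, 2.55 in brm-1 brd1,2,13 and 2.11 in WT, and the median mitochondrial record at 2.22, 2.16, 2.37 and 1.37 FPKM in the same genotypes. The median of the 18253 nuclear records that reached 1 FPKM was between 13.3 and 13.6 FPKM in the 4 genotypes. Most organelle records join several genes, over up to 23101 bases, so these medians cannot be compared as levels per gene.

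**Figure D1:**
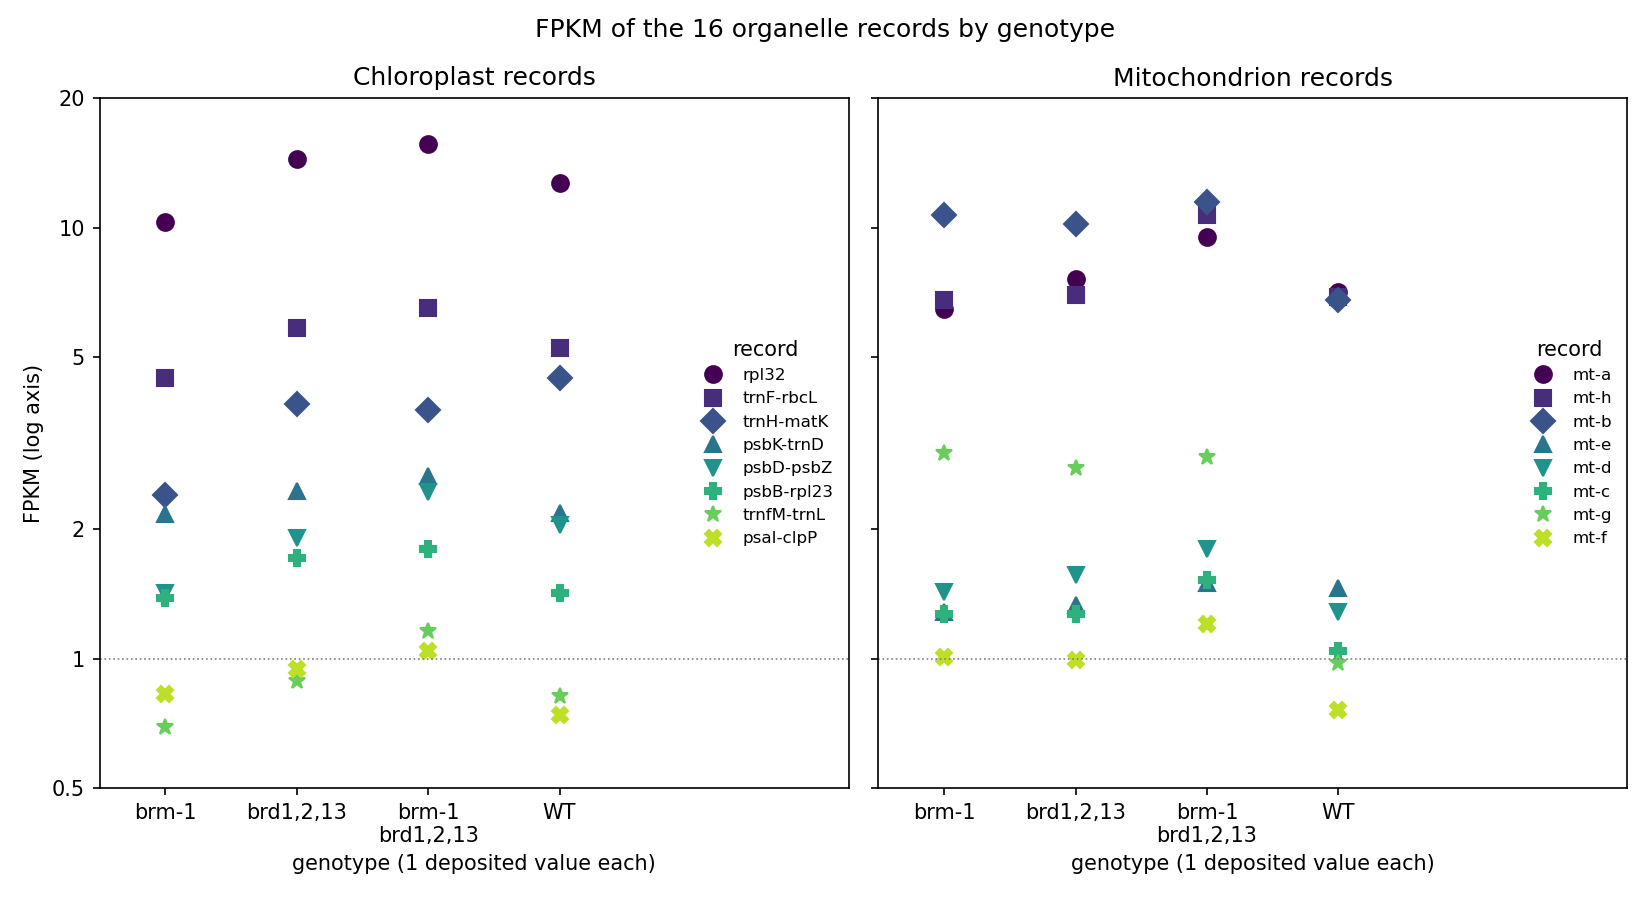
FPKM on a log axis of the 8 chloroplast records (left) and the 8 mitochondrial records (right) in brm-1, brd1,2,13, brm-1 brd1,2,13 and WT, with 1 deposited value per point and a dotted line at the threshold of 1 FPKM. The rpl32 locus is highest of the chloroplast records in each genotype, between 10.3 and 15.6 FPKM, and mt-g is the one record that lies apart in WT, at 0.975 against 2.77 to 3.0 FPKM in the mutants.

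The rpl32 locus had 10.3 FPKM in brm-1, 14.4 in brd1,2,13 and 15.6 in brm-1 brd1,2,13, against 12.7 in WT. The next highest, at C:47572-56941, runs from trnF to rbcL, which encodes the large subunit of Rubisco, and includes ndhJ, ndhK, ndhC, atpE and atpB. It had 4.49 FPKM in brm-1, 5.85 in brd1,2,13 and 6.52 in brm-1 brd1,2,13, against 5.25 in WT. Both records thus had the same order of genotypes, with brm-1 lowest, WT next, then brd1,2,13 and the combined mutant highest. Loss of BRM alone went with log2 ratios over WT of -0.29 for rpl32 and -0.23 for trnF-rbcL, and the further loss of the BRD proteins with log2 ratios over brm-1 of 0.59 and 0.54 for these loci.

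The psbA locus at C:11-4693 (trnH, psbA, trnK and matK, a maturase for intron splicing) had 2.40 FPKM in brm-1, 3.89 in brd1,2,13 and 3.78 in brm-1 brd1,2,13, against 4.47 in WT. It was the one chloroplast record that was highest in WT, and its log2 ratio of brm-1 over WT, -0.90, was the lowest of the 8. The locus at C:31640-36251 holds psbD and psbC, a reaction-centre and an antenna protein of photosystem II, with trnS and psbZ. It had 1.42 FPKM in brm-1, 1.90 in brd1,2,13 and 2.44 in brm-1 brd1,2,13, against 2.04 in WT. These loci had the lowest log2 ratios of brm-1 over WT among the 8 chloroplast records, -0.90 and -0.53, and were the only ones of the 8 lower in brd1,2,13 than in WT, with log2 ratios of -0.20 and -0.10. Under the minimum, the accD locus had a lower ratio of brm-1 over WT, at -1.08. Among the 8, the other records that hold photosystem II genes did not share the low ratios, with -0.01 for psbK-trnD, -0.04 for psbB-rpl23 and 0.17 for psaI-clpP. A second record with the ends of psaI-clpP, under the minimum, had -0.55, so low ratios were not confined to the psbA and psbD-psbZ loci.

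The locus at C:6874-29974 joins 17 genes from psbK to trnD, among them atpA, atpF, atpH and atpI of ATP synthase and the polymerase genes rpoC2, rpoC1 and rpoB. It had 2.16 FPKM in brm-1, 2.45 in brd1,2,13 and 2.65 in brm-1 brd1,2,13, against 2.18 in WT. The locus at C:72038-86254 joins 17 genes from psbB, another antenna protein of photosystem II, through petB, petD and rpoA to a run of ribosomal protein genes that ends with rpl23. It had 1.38 FPKM in brm-1, 1.71 in brd1,2,13 and 1.80 in brm-1 brd1,2,13, against 1.42 in WT. In both of these long loci brm-1 and WT were close, with log2 ratios of -0.01 and -0.04, and both mutants without the BRD proteins had higher values.

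The locus at C:36697-47500 holds psaB and psaA, the core of photosystem I, with rps14, ycf3 (a photosystem I assembly factor) and rps4. It had 0.694 FPKM in brm-1, 0.889 in brd1,2,13 and 1.16 in brm-1 brd1,2,13, against 0.820 in WT, and passed the threshold in the combined mutant alone. The psaI-clpP locus at C:59106-71970 also holds petA, psbE, psbF and rpl20, and had 0.829 FPKM in brm-1, 0.948 in brd1,2,13 and 1.04 in brm-1 brd1,2,13, against 0.739 in WT. It was the one chloroplast record of the 8 that was lowest in WT. A second assembled record with the same ends stayed under the threshold, at 0.480 FPKM in brm-1, 0.820 in brd1,2,13 and 0.781 in brm-1 brd1,2,13, against 0.704 in WT. The order of brm-1 and WT was opposite in the records of this pair, and how reads were divided between them is not given.

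The other 4 chloroplast loci under 1 FPKM include genes of the NDH complex and the genes accD and ycf1. The accD locus at C:57455-59018, the gene of a subunit of acetyl-CoA carboxylase that the nuclear-encoded polymerase mainly transcribes, had 0.0660 FPKM in brm-1, 0.298 in brd1,2,13 and 0.232 in brm-1 brd1,2,13, against 0.140 in WT. The locus with ndhI, ndhA and ndhH had 0.404 FPKM in brm-1, 0.600 in brd1,2,13 and 0.594 in brm-1 brd1,2,13, against 0.397 in WT. The number of reads behind values this low is not given.

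The mitochondrial loci are given by position on the mitochondrial genome of the table (TAIR10) and called mt-a to mt-h in that order. None of the 141 annotated mitochondrial records of the table has the start and end of a gene of the RefSeq mitochondrial genome, and the table does not pair mitochondrial IDs with gene names, so no names or functions are given for them. The records mt-a (M:8914-12901), mt-c (M:21714-32035), mt-f (M:188474-192161) and mt-h (M:358835-363670) each overlap several annotated IDs, between 2 and 6. The records mt-b (M:20915-21641), mt-d (M:39651-42970), mt-e (M:71378-72925) and mt-g (M:305240-305693) overlap 1 each.

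Record mt-b, which overlaps ATMG00060, had 10.7 FPKM in brm-1, 10.2 in brd1,2,13 and 11.5 in brm-1 brd1,2,13, against 6.81 in WT. Record mt-g, which overlaps ATMG01220, had 3.0 FPKM in brm-1, 2.77 in brd1,2,13 and 2.93 in brm-1 brd1,2,13, against 0.975 in WT. In both, the 3 mutants lay close together and above WT. The log2 ratios over WT of mt-g were 1.62 in brm-1, 1.5 in brd1,2,13 and 1.59 in brm-1 brd1,2,13, and it was the only one of the 16 records with a ratio of at least 2-fold in any comparison. At 454 bases mt-g was also the shortest of the 16 records. The rule for mt-g was met through the mutants, since its WT value was under 1 FPKM.

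Record mt-h had 6.81 FPKM in brm-1, 6.98 in brd1,2,13 and 10.7 in brm-1 brd1,2,13, against 6.91 in WT. Record mt-a had 6.47 FPKM in brm-1, 7.60 in brd1,2,13 and 9.53 in brm-1 brd1,2,13, against 7.08 in WT. These loci differed from mt-b and mt-g in that the combined mutant stood above the other genotypes, with log2 ratios over WT of 0.62 for mt-h and 0.43 for mt-a, while brm-1 was just below WT in both, at -0.02 and -0.13.

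Among the less abundant mitochondrial records, mt-d had 1.43 FPKM in brm-1, 1.56 in brd1,2,13 and 1.80 in brm-1 brd1,2,13, against 1.28 in WT. Record mt-c had 1.27 FPKM in brm-1, 1.27 in brd1,2,13 and 1.52 in brm-1 brd1,2,13, against 1.04 in WT. Record mt-f had 1.01 FPKM in brm-1, 0.992 in brd1,2,13 and 1.2 in brm-1 brd1,2,13, against 0.761 in WT. All 3 were lowest in WT and highest in the combined mutant. Record mt-e had 1.28 FPKM in brm-1, 1.33 in brd1,2,13 and 1.5 in brm-1 brd1,2,13, against 1.46 in WT, the flattest profile of the 8.

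The 3 comparisons over WT share the WT value of each record, and those of the combined mutant share its value, so they are given side by side. The brm-1 value also enters both brm-1 over WT and brm-1 brd1,2,13 over brm-1, with opposite signs. It was the lowest of the 4 genotypes in 7 of 8 chloroplast records, a count that was not made over all records. A low brm-1 value alone would lower the first ratio and raise the second, so these are not separate observations. Set over the whole table, most chloroplast records were lower in brm-1 than in WT, while the mitochondrial records were near the share of all records. In brm-1 over WT, 1 of 8 chloroplast records was higher and 5 of 8 mitochondrial records were higher, where 49.8% of all 18190 records with a ratio were higher. The median log2 ratio was -0.23 over the chloroplast records and 0.22 over the mitochondrial records, and -0.00 over all records. At least 2-fold differences were found in 0 of 8 chloroplast records and 1 of 8 mitochondrial records (mt-g), against 12.4% of all records. Over all assembled loci the chloroplast median was also -0.23, with 4 of 13 higher, while the mitochondrial median was -0.01, with 14 of 29 higher, and at a minimum of 5 FPKM it was -0.02, so that the mitochondrial median depended on which loci were counted.

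In brd1,2,13 over WT, 6 of 8 chloroplast and 7 of 8 mitochondrial records were higher, against 51.6% of all records. The medians were 0.16 and 0.29, against 0.01 over all records. The 2-fold threshold was passed by 0 of 8 chloroplast records and 1 of 8 mitochondrial records, where 4.91% of all records passed it. Over all assembled loci the medians were 0.19 for the chloroplast, with 11 of 13 higher, and 0.20 for the mitochondrion, with 21 of 29 higher.

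In brm-1 brd1,2,13 over WT, 7 of 8 chloroplast and 8 of 8 mitochondrial records were higher, against 51.0% of all records. The medians were 0.31 and 0.58, against 0.01 over all records. Again mt-g alone reached 2-fold, where 14.7% of all records did. Over all assembled loci 12 of 13 chloroplast records had higher values, with a median of 0.31, and 22 of 29 mitochondrial records, with a median of 0.50.

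The combined mutant was then set against each of its parts. Over brm-1, 8 of 8 chloroplast and 7 of 8 mitochondrial records were higher, against 51.0% of all 18210 records, and none of the 16 reached 2-fold, where 1.69% of all records did. The chloroplast median was 0.57, with a range of 0.30 to 0.78, and the mitochondrial median was 0.26, with a range of -0.03 to 0.65. Over all assembled loci 12 of 13 chloroplast records had higher values than in brm-1, with a median of 0.56, and 24 of 29 mitochondrial records, with a median of 0.25. Over brd1,2,13, 7 of 8 chloroplast and 8 of 8 mitochondrial records were higher, against 49.4% of all records, with medians of 0.12 and 0.23, and none reached 2-fold, against 11.2% of all records. Over all assembled loci 8 of 13 chloroplast records had higher values than in brd1,2,13, with a median of 0.11, a share of 61.5% that is nearer to that of all records, and 21 of 29 mitochondrial records, with a median of 0.21. The psaI-clpP and trnfM-trnL records, 2 of the 8 of the chloroplast, had passed the minimum through the combined mutant alone. Records of 1 organelle share precursors and the RNA content of the organelle, and are not replicates of a genotype.

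**Figure D2:**
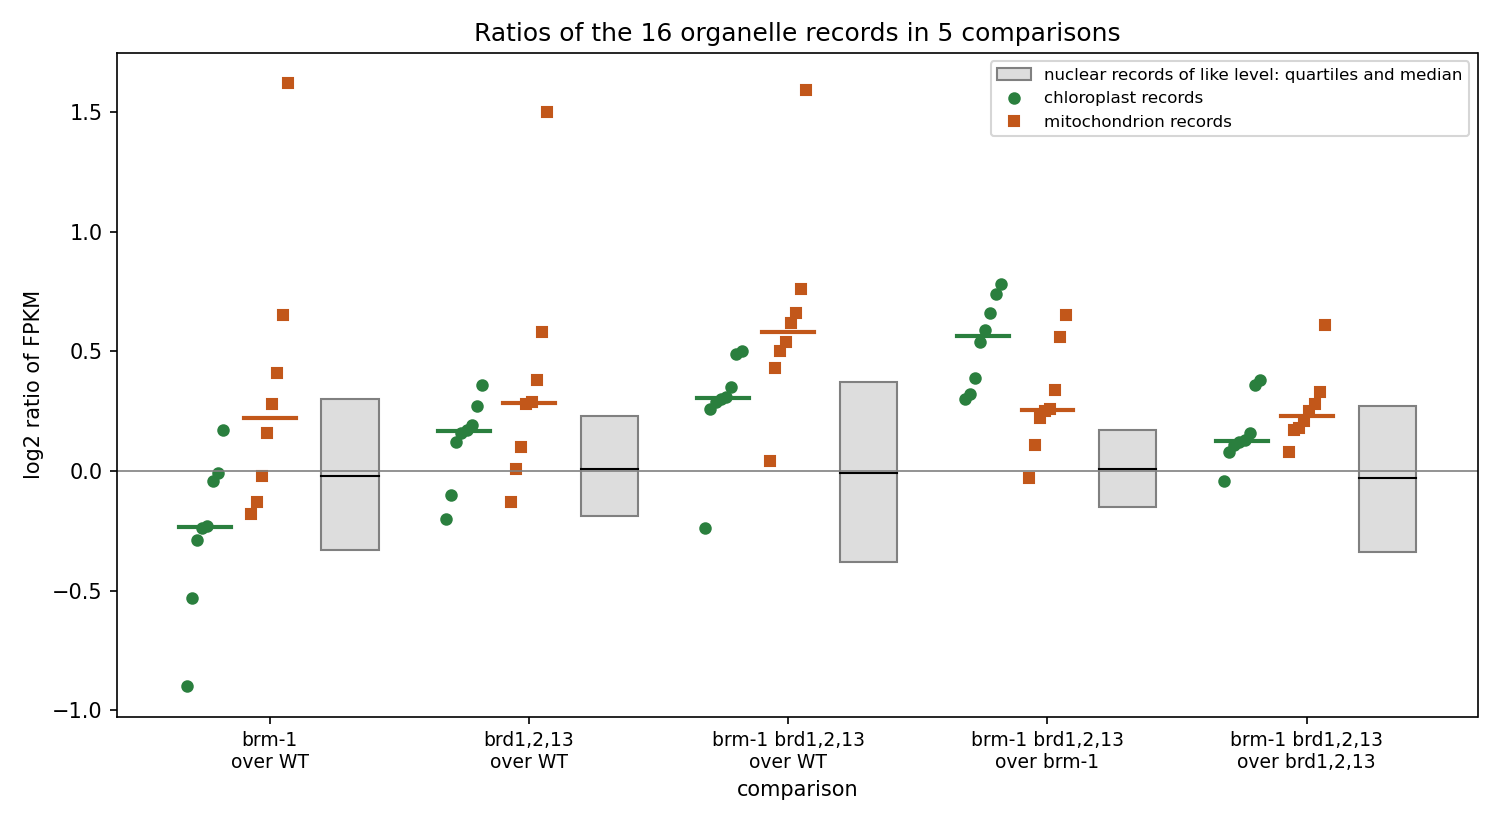
Log2 ratio of FPKM in 5 comparisons for the 8 chloroplast records (circles) and the 8 mitochondrial records (squares), each with its median as a coloured bar, beside a grey box with the quartiles and median of nuclear records between 1 and 15.6 FPKM in their highest genotype. The chloroplast records lie mostly below 0 in brm-1 over WT and all above the grey box in brm-1 brd1,2,13 over brm-1.

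The comparison with nuclear records of like level, those whose highest value was between 1 and 15.6 FPKM, showed how wide such ratios commonly were. In brm-1 brd1,2,13 over brm-1 the quartiles of 8824 nuclear records were -0.15 and 0.17, and 8 of 8 chloroplast and 6 of 8 mitochondrial records lay above the upper one. In brm-1 brd1,2,13 over WT the quartiles were -0.38 and 0.37, with 2 of 8 chloroplast and 7 of 8 mitochondrial records above. In brm-1 over WT they were -0.33 and 0.30, with 2 of 8 chloroplast records below and 3 of 8 mitochondrial records above. In brd1,2,13 over WT they were -0.19 and 0.23, with 2 chloroplast records above and 1 below, and 5 mitochondrial records above. In brm-1 brd1,2,13 over brd1,2,13 they were -0.34 and 0.27, with 2 chloroplast and 3 mitochondrial records above. The 72 nuclear loci of at least 1 FPKM that, like the organelle loci, were assembled without a gene name (71 with a ratio over WT) had medians of 0.17 in brm-1, 0.07 in brd1,2,13 and 0.33 in brm-1 brd1,2,13 over WT, 0.19 in the combined mutant over brm-1, and 0.12 over brd1,2,13. Unnamed nuclear loci were thus also above 0 in the median in each of these comparisons, the chloroplast median being lower than theirs in brm-1 over WT and higher in the combined mutant over brm-1.

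The loss of BRD1, BRD2 and BRD13 can be read in 2 comparisons that share no genotype, with BRM present (brd1,2,13 over WT) and without it (brm-1 brd1,2,13 over brm-1). Both ratios were above 0 in 6 of 8 chloroplast and 6 of 8 mitochondrial records, in 10 of 13 and 16 of 29 of all assembled loci, and in 29.0% of all records. No organelle locus was lower in both. The chloroplast ratios were larger without BRM, by a median of 0.39 on the log2 scale, and the mitochondrial ones differed by a median of 0.01. The difference was largest among chloroplast records for psbD-psbZ, with log2 ratios of 0.78 without BRM and -0.10 with it, and for the psbA locus, with 0.66 and -0.20. For mt-g it ran the other way, at -0.03 without BRM and 1.5 with it. With 1 value per genotype, none of these differences can be tested.

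**Figure D3:**
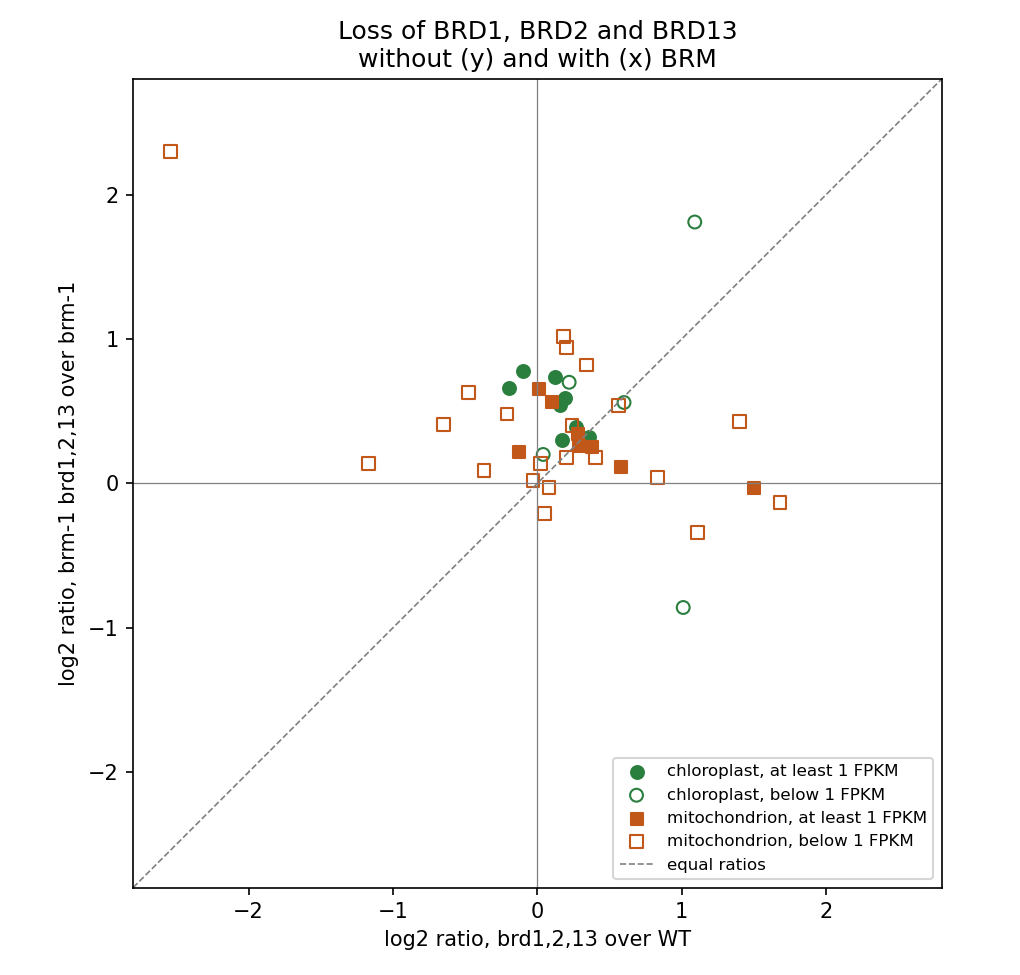
Log2 ratio of brm-1 brd1,2,13 over brm-1 (y axis) against that of brd1,2,13 over WT (x axis) for the 42 assembled organelle loci, with filled symbols for the 16 records of at least 1 FPKM, open symbols for loci below it, and a dashed line where both ratios are equal. All 8 filled chloroplast circles lie above 0 on the y axis and 7 of them above the dashed line, and no point falls in the lower left, where both ratios are negative.

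Nuclear genes that serve organelle transcription were read beside these values. The phage-type polymerase genes had lower values in each mutant than in WT. AT2G24120 (SCA3), the plastid phage-type polymerase, had 16.4 FPKM in brm-1, 21.6 in brd1,2,13 and 14.1 in brm-1 brd1,2,13, against 28.2 in WT, in a record that joins 2 genes. AT1G68990 (MGP3), the mitochondrial one, had 8.75 FPKM in brm-1, 12.3 in brd1,2,13 and 7.92 in brm-1 brd1,2,13, against 15.2 in WT. AT5G15700, the one targeted to both organelles, had 3.86 FPKM in brm-1, 4.89 in brd1,2,13 and 3.27 in brm-1 brd1,2,13, against 5.56 in WT. All 3 genes had the order WT, brd1,2,13, brm-1, combined mutant from high to low. None of the 3 reached 2-fold, although SCA3 came just short of it in brm-1 brd1,2,13 over WT, where 14.7% of all records reached it.

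Of the 6 sigma factors, 3 were higher in brm-1 than in WT, 6 in brd1,2,13 and 2 in brm-1 brd1,2,13, with medians of -0.02, 0.19 and -0.13. Of all records, 49.8%, 51.6% and 51.0% were higher in the same order. The records of SIG2 (AT1G08540) and SIG4 (AT5G13730) each join 2 genes, and these were the 2 that were higher in brm-1 brd1,2,13. Some records of the lists that follow also join genes. One passed 2-fold: AT5G24120 (SIGE), the sigma factor known for psbD transcription in blue light, had 31.9 FPKM in brm-1, 77.4 in brd1,2,13 and 28.3 in brm-1 brd1,2,13, against 65.1 in WT. SIGE was low in both genotypes without BRM. The psbD-psbZ locus was low in brm-1 and highest in the combined mutant, and a link between them was not tested. The 12 proteins associated with the plastid-encoded polymerase had medians over WT of 0.18 in brm-1, -0.01 in brd1,2,13 and 0.09 in brm-1 brd1,2,13, and 0 of 12 reached 2-fold. The 5 genes of plastid RNA decay and stability had medians of 0.19 in brm-1, 0.02 in brd1,2,13 and 0.04 in brm-1 brd1,2,13 over WT, with 0 of 5 at 2-fold. Of all records, 12.4% were at least 2-fold apart from WT in brm-1, 4.91% in brd1,2,13 and 14.7% in brm-1 brd1,2,13.

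The 4 nuclear genes of the mitochondrial stress response had medians over WT of 0.93 in brm-1, 0.31 in brd1,2,13 and 0.90 in brm-1 brd1,2,13, with 4 of 4 higher in each. Of all records, 49.8%, 51.6% and 51.0% were higher in the same order. In both genotypes that lack BRM, 2 of 4 were at least 2-fold higher, against 1229 of all 18190 records in brm-1 and 1453 of 18187 in brm-1 brd1,2,13. AT2G21640 had 19.3 FPKM in brm-1, 10.9 in brd1,2,13 and 18.3 in brm-1 brd1,2,13, against 8.64 in WT. AT3G50930 (BCS1) had 8.66 FPKM in brm-1, 4.79 in brd1,2,13 and 8.67 in brm-1 brd1,2,13, against 4.20 in WT, and a second record of this ID stayed under 1 FPKM. These genes were the ones past 2-fold. AT4G05020 (NDB2), an alternative NADH dehydrogenase, had 24.1 FPKM in brm-1, 16.9 in brd1,2,13 and 23.2 in brm-1 brd1,2,13, against 13.8 in WT. AT3G22370 (AOX1A), the alternative oxidase, had 42.2 FPKM in brm-1, 51.2 in brd1,2,13 and 36.8 in brm-1 brd1,2,13, against 34.3 in WT. In the combined mutant over brm-1 the median of this list was -0.06, with 1 of 4 higher, against 51.0% of all records. In that comparison 7 of the 8 mitochondrial records were higher. The part of any of these nuclear genes in the organelle values was not tested.

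The mutants matched their labels in the targeted genes. BRM (AT2G46020) had 0.0954 FPKM in brm-1, 18.5 in brd1,2,13 and 0.120 in brm-1 brd1,2,13, against 17.5 in WT. The genes taken here as BRD1, BRD2 and BRD13 (AT1G20670, AT1G76380, AT5G55040) were at least 2-fold lower in both genotypes labelled brd1,2,13 than in WT. AT1G76380 had 22.5 FPKM in brm-1, against 7.04 in WT. The 4 leaf markers had log2 ratios over WT between -0.12 and 0.12 in the 3 mutants, and RBCS1A (AT1G67090), the nuclear-encoded small subunit of Rubisco, had 16426 FPKM in brm-1, 15606 in brd1,2,13 and 15640 in brm-1 brd1,2,13, against 16716 in WT. The 3 root markers were lower in the median, with log2 ratios over WT of -0.57 in brm-1, -0.73 in brd1,2,13 and -0.83 in brm-1 brd1,2,13. The leaf markers thus differed less between genotypes than the chloroplast records, but at unlike levels. The leaf markers were at 1589 to 16716 FPKM and the 8 chloroplast records at no more than 15.6 FPKM, so the spreads of their ratios are not directly comparable. The root markers moved with the mutants in the direction opposite to the organelle medians of brd1,2,13 and of the combined mutant. The part of the leaf and root markers in the result was not tested. In bulk seedling RNA, the number of organelles, the share of organelle-rich cells and the RNA per organelle cannot be told apart. Differences in library preparation cannot be told apart from these either, since the labels do not say whether poly(A) RNA was selected.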

How the data were processed

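As tools, the notes of the submitters on processing list Cuffdiff 2.1.1, Cufflinks 2.1.1 and TopHat, with TAIR10 as build. The authors deposited 1 gene table with FPKM values, 1 per genotype over its 3 libraries. Its 6 pairwise comparisons also carry the authors' fold changes, test statistics, p-values and q-values, which were not used. Read totals are not given, so the depth is unknown. Per organelle, log2 ratios of FPKM were computed without a pseudocount for 5 comparisons in Python 3.11.15 (pandas 2.3.3, numpy 2.4.6), over records with at least 1 FPKM in any genotype. A ratio of at least 2-fold was called, and a median counted as moved under an alternative when it shifted by more than 0.1. Ratio and count steps were tested on simulated data. Chloroplast gene names, spans and sequence came from RefSeq (TAIR10.1). The naming rule asked for single-gene records, of which the chloroplast had 1, so all 16 records were described. The members and gene lists were chosen with earlier results of these data known. Alternatives covered joined records, minimum, pseudocount, RNA class, scaling and fold.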

Additional observations from a re-analysis of the deposited data

How the results depend on the processing

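Each of 20 values (the median and the 2-fold count per organelle and comparison) was recomputed under up to 8 alternatives. Centring on the nuclear median moved none. Leaving out chloroplast records that hold rRNA or tRNA genes alone removed no record, since each of the 13 loci overlaps a protein-coding gene, and so tests nothing. With records that overlap several annotated genes left out, the mitochondrial medians were 0.41 in brm-1 and 0.43 in brd1,2,13 over WT. This left mt-b, mt-d, mt-e and mt-g, and for the chloroplast the rpl32 locus alone, so its unmoved medians are the values of that locus. With a minimum of 5 FPKM the mitochondrial medians were -0.02 in brm-1 and 0.10 in brd1,2,13 over WT and 0.56 in the combined mutant over brm-1, and the mitochondrial 2-fold count was 0 in each mutant over WT. This minimum left only mt-a, mt-b and mt-h, and for the chloroplast only the rpl32 and trnF-rbcL loci. With no minimum the mitochondrial median of brm-1 over WT was -0.01. The 2-fold counts with no minimum were 1, 2 and 1 for the 13 chloroplast loci in brm-1 over WT, brd1,2,13 over WT and the combined mutant over brm-1. For the 29 mitochondrial loci they were 4, 6 and 4 in brm-1, brd1,2,13 and the combined mutant over WT, and 2 and 3 in the combined mutant over brm-1 and over brd1,2,13. The calls added without the minimum are all loci under 1 FPKM in every genotype, and the shares of all records without it were not computed. A pseudocount of 1 gave a chloroplast median of 0.40 in the combined mutant over brm-1, mitochondrial medians of 0.16 and 0.35 in brd1,2,13 and the combined mutant over WT and 0.14 in the combined mutant over brm-1, and mitochondrial 2-fold counts of 0 in brd1,2,13 and the combined mutant over WT. At a 1.5-fold threshold the counts among the 8 chloroplast records were 1 in brm-1 over WT and 4 in the combined mutant over brm-1. Among the 8 mitochondrial records they were 2 in brm-1 over WT, 4 in the combined mutant over WT, and 1 over brm-1 and 1 over brd1,2,13. The shares of all records at 1.5-fold were not computed. Requiring 1 FPKM in all 4 genotypes, an alternative chosen after seeing the data, gave a mitochondrial median of 0.07 in brm-1 over WT and a mitochondrial 2-fold count of 0 in each mutant over WT. That count rests on mt-g alone in the values above, which the minimum removes; the cause of the other shifts was not tested. The mitochondrial median of brm-1 over WT is thus the value that depends most on which loci enter it. The alternative without rRNA and tRNA was not run for the mitochondrion, whose IDs carry no names. No paired analysis was possible because the table holds no value per library, and for the same reason no replicate could be left out.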

Other observations

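Part of the mitochondrial genome also lies in the nucleus. In TAIR10.1 a stretch of about 270 kb of chromosome 2 holds 53 windows of 5000 bases in which at least 90% of sampled 31-base words occur in the mitochondrial genome. Of 113 records of the table that carry a gene ID from this stretch, 75 are listed at 0 in all genotypes and 4 reached 1 FPKM, with a highest value of 2.27 FPKM. The record that joins AT2G07689, AT2G07792 and AT2G07808 had 1.90 FPKM in brm-1, 1.94 in brd1,2,13 and 1.43 in brm-1 brd1,2,13, against 2.27 in WT. No source used here says how reads that match both copies were divided, which leaves the mitochondrial values uncertain to that extent.

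Over all 29 mitochondrial loci, 16 were highest in brm-1 brd1,2,13, 5 in brd1,2,13, 4 in brm-1 and 4 in WT. Over all 13 chloroplast loci, 8 were highest in brm-1 brd1,2,13, 4 in brd1,2,13, 0 in brm-1 and 1 in WT, and 9 were lowest in brm-1. The same counts were not made over all records, so whether these depart from the whole table is not known.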
